A study of Saccharomyces cerevisiae with 16 samples.

Results

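Histidine biosynthesis in budding yeast runs from phosphoribosyl pyrophosphate (PRPP) and ATP to histidine and is carried out by the products of the 7 genes HIS1 to HIS7. These 7 genes were taken by name, and all 7 were found among the 6002 protein-coding open reading frames (ORFs) of the nuclear chromosomes. The genes lie apart on 6 chromosomes, so each is read by its own promoter. In starved cells the transcription factor Gcn4 raises expression of this and other amino acid pathways, a response known as general amino acid control. Bas1, acting with Pho2, is known to contribute to HIS4 expression and to tie the pathway to purine synthesis, since a step of histidine synthesis releases the purine intermediate AICAR.

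The data were peak lists from chromatin immunoprecipitation (ChIP) of RNA polymerase II (RNAPII) with the 8WG16 antibody, raised against the largest subunit Rpb1. The 4 groups were heat-shocked ubc9-6 cells, untreated ubc9-6 cells, heat-shocked WT cells and untreated WT cells, with 2 independent replicates each and 1 peak list per replicate. Heat shock was 12 min at 37 °C, and untreated cells stayed at 30 °C, all in synthetic complete medium at mid-log phase. WT is the haploid laboratory strain W303a, which the study lists as MATa with the alleles his3-11 and ade2-1, and with can1-100, leu2-3_112, trp1Δ2 and ura3-52. The ubc9-6 strain, built in that background, carries tandem copies of ubc9-1 with a TRP1 marker at the locus of UBC9, which encodes the conjugating enzyme for the protein modifier SUMO. All 4 groups therefore carry the mutant his3-11 allele, and peaks over HIS3 were placed on the reference gene. The paper reports much reduced SUMO conjugation in the mutant strain. For growth of ubc9-6 cells, 30 °C is the permissive and 37 °C the non-permissive temperature. Heat shock of ubc9-6 cells was thus also a shift to their non-permissive temperature, and effects of heat and of that shift were not tested apart. The comparison of heat-shocked ubc9-6 with heat-shocked WT cells has the same limit.

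The 8 lists held 1451 to 1545 peaks, which covered 22.97% to 25.42% of the 12071326 bp of nuclear genome. A list was said to occupy an ORF if its peaks covered 0.5 of the ORF's length or more, which held for 25.1% to 28.8% of ORFs. A peak's rank is its place in its own list by fold enrichment over input, with rank 1 the strongest. A rank belongs to the whole peak, which can span neighbouring genes, so neighbours with at least 0.5 of their length under the same peak are named. In bulk ChIP, fewer cells with RNAPII on a gene and less RNAPII per cell cannot be told apart.

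HIS4 had the widest range of peak strength, and its promoter window and those of 3 other members are printed as examples of windows in which a peak started or ended. Each window runs from 250 bases before the start codon to 50 bases after its first base, is written 5′ to 3′ on the gene's strand, and comes from the RefSeq R64 genome, whose coordinates are those of sacCer3. Capitals mark TGACTC or its reverse complement GAGTCA, the core letters known to be bound by Gcn4 and also by Bas1. The windows are chrIII:68284-68583 on the minus strand for HIS4, chrII:716416-716715 on the minus strand for HIS7, chrXV:721696-721995 on the plus strand for HIS3 and chrIX:142678-142977 on the plus strand for HIS5.
HIS4: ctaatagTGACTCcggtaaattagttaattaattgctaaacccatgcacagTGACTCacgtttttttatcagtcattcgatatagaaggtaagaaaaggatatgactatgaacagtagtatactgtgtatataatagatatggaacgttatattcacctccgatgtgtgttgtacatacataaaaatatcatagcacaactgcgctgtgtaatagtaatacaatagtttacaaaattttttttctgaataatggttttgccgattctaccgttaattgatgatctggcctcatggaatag
HIS7: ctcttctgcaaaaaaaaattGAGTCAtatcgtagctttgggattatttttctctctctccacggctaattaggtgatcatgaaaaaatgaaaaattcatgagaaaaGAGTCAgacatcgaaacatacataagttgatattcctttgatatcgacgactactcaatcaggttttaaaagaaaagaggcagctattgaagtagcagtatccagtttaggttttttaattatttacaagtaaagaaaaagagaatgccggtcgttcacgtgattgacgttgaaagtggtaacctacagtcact
HIS3: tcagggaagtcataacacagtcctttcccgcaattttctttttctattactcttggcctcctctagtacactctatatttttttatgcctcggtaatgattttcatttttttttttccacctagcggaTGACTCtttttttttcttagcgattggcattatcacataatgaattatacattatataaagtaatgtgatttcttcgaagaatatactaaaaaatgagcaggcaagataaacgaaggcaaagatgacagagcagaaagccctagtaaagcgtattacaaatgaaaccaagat
HIS5: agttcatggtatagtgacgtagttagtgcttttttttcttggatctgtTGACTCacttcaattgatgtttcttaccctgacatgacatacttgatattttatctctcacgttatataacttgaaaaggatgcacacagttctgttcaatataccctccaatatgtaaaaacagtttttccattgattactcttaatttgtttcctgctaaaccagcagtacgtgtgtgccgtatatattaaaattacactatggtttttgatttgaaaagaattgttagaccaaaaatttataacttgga

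The letters TGACTC, on either strand, stood in 6 of the 7 histidine windows, against 7.98% of the 6001 windows of the same length over all ORFs. HIS2 was the exception. HIS4 and HIS7 held 2 matches each, and the other windows with a match held 1 each. TATAAA, the other motif searched on both strands, stood in 3 of 7 histidine windows, HIS3 and HIS5 among them, against 45.2% of all windows, and no TATAAA match overlapped a TGACTC match in them. These are matches of letters and not measured binding sites. The TATAAA match in the HIS5 window lies past the start codon, within the coding sequence.

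**Figure D1:**
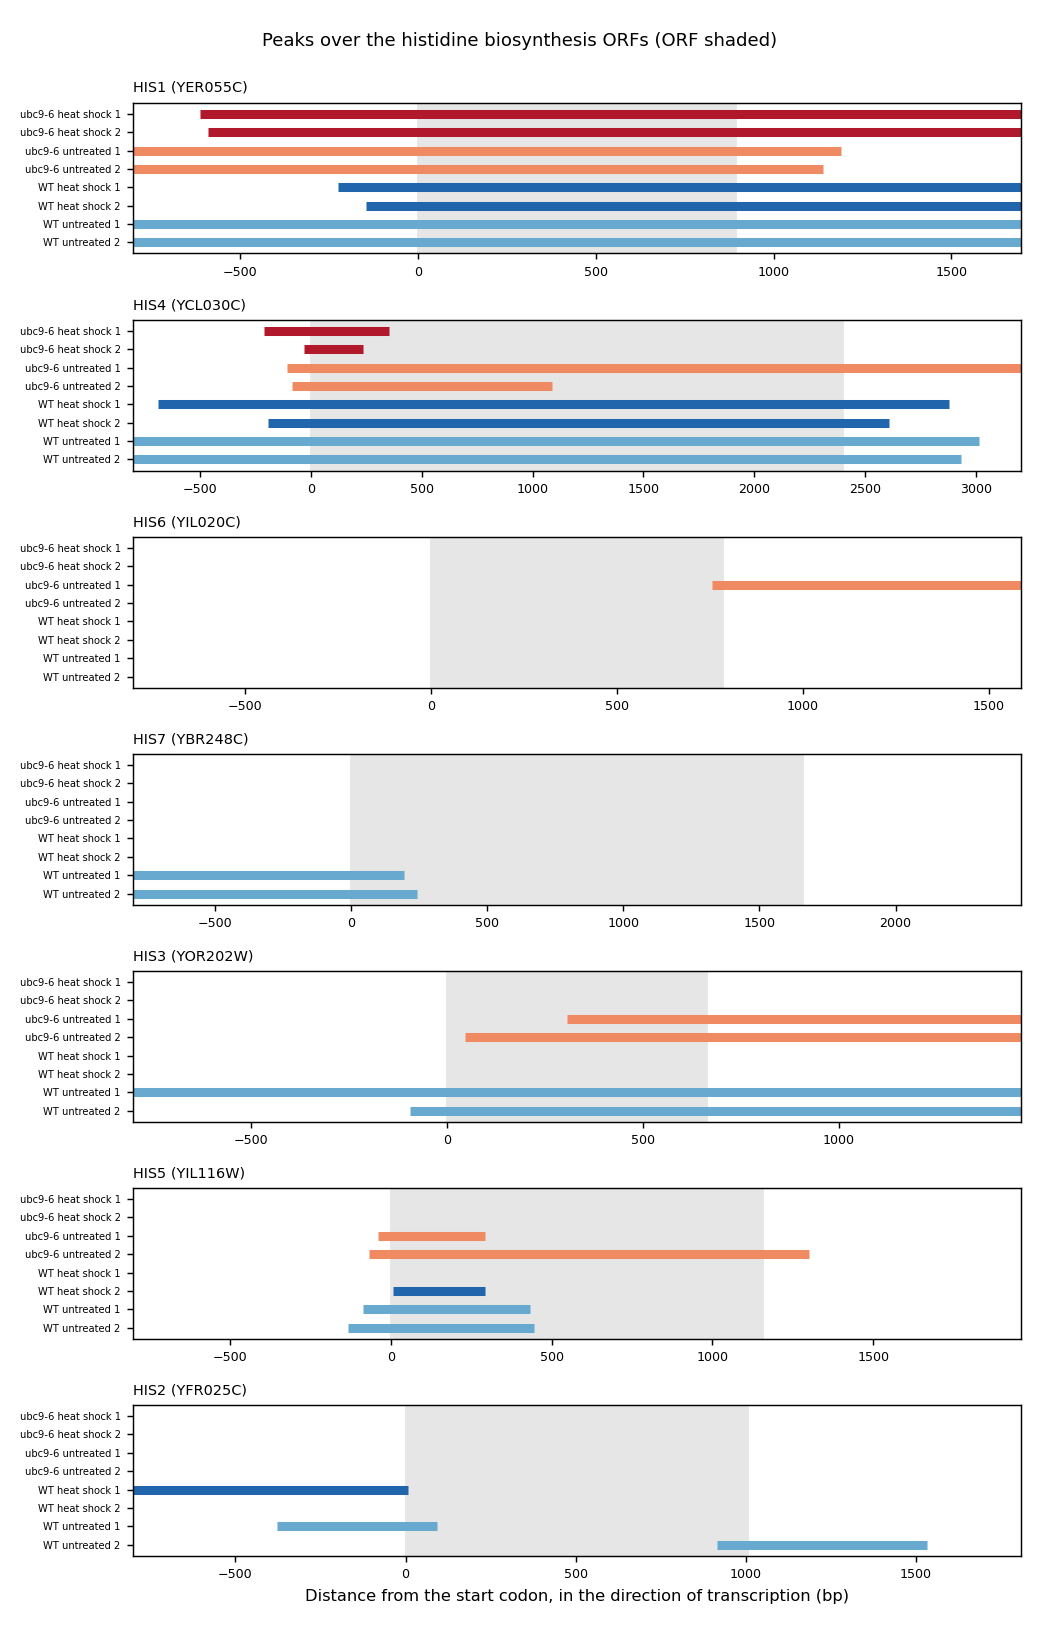
Peaks over the 7 histidine biosynthesis ORFs, in pathway order from top to bottom. The x axis is the distance from the start codon in bp, each coloured bar is a peak in 1 of the 8 lists (clipped 800 bp beyond the ORF), and grey marks the ORF. HIS1 was covered in all 8 lists, the HIS4 peak shortened to the start of the gene in 3 ubc9-6 lists, and the bars over HIS3 were in untreated lists only.

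HIS1 and HIS4 were the members with a peak in all 8 lists. HIS1 was the sole member occupied in all 8 lists, which is 14.3% of the 7 members, against 13.9% of all ORFs. At the other end, HIS2, HIS6 and HIS7 were never occupied, 3 of 7 members against 57.0% of all ORFs. Every member had at least 1 base under a peak in some list, while 30.0% of all ORFs had none. At HIS6 and HIS7 these bases were the edge of a peak over a neighbour, 31 bp in 1 list at HIS6. Other amino acid pathways were similar: 0 of 9 arginine, 1 of 9 lysine and 1 of 10 aromatic and tryptophan genes had none. The number of members occupied was 1 in each heat-shocked ubc9-6 list, 3 in each untreated ubc9-6 list, 2 in each heat-shocked WT list and 3 in each untreated WT list. The median covered share over the 7 members, taken on each gene's group mean, was 0 in heat-shocked ubc9-6 cells, 0.627 in untreated ubc9-6 cells, 0.00347 in heat-shocked WT cells and 0.380 in untreated WT cells. The same median over all ORFs was 0.0124, 0.0221, 0.0142 and 0.0290 in these 4 groups. With 7 members each median above 0 is the value of 1 gene, HIS5 in both untreated groups and HIS2 in heat-shocked WT cells. The 0.627 of HIS5 in untreated ubc9-6 cells is the mean of 0.255 and 1 (standard deviation 0.527). These medians therefore do not describe the members as a set.

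**Figure D2:**
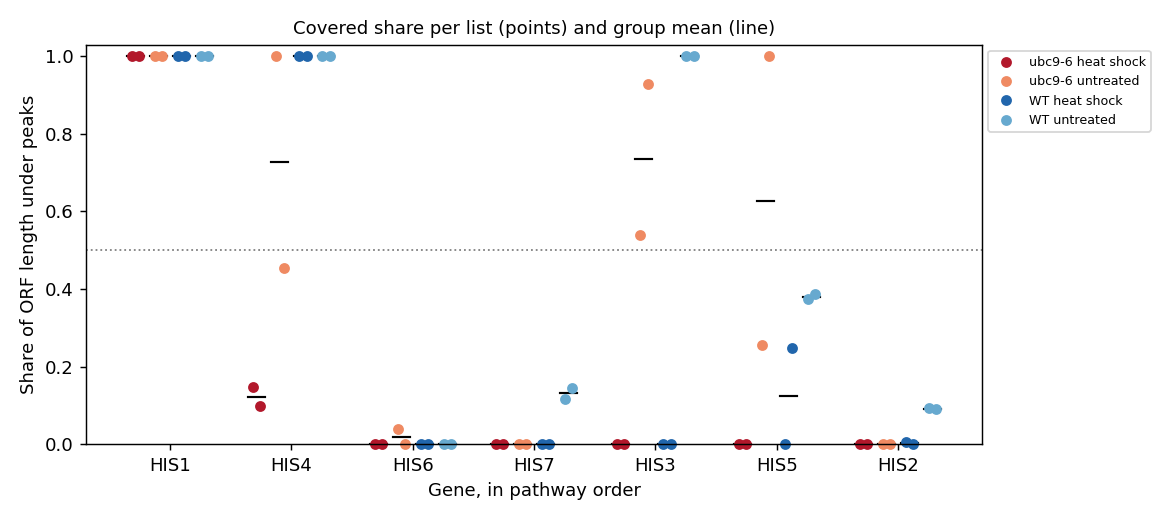
Share of each ORF's length under peaks (y axis, 0 to 1) for the 7 genes in pathway order (x axis). Points are single lists, black lines are group means of 2 lists, and the dotted line is the 0.5 limit for an occupied ORF. HIS1 sat at 1 in every list, and HIS3 was at 0 in all 4 heat shock lists.

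The first question was how heat shock changed RNAPII over these genes within each strain. Gained means occupied in both lists of the group named first and in no list of its comparison group, and lost is the reverse. No member was gained on heat shock in WT cells, where 0.916% of all ORFs were, or in ubc9-6 cells, where 3.28% were. HIS3 was lost on heat shock in WT cells (1.75% of all ORFs were) and again in ubc9-6 cells (3.98% of all ORFs were). With occupied set at 0.8 of the length, HIS3 was not lost in ubc9-6 cells and the count was 0, since untreated replicate 1 covered 0.540 of it. In ubc9-6 cells the count at 0.5 went to 2 members when either untreated list was left out: HIS3 and HIS5 without untreated replicate 1, and HIS3 and HIS4 without untreated replicate 2.

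The second question was how ubc9-6 and WT cells differed within each treatment. Among untreated cells no member was gained in ubc9-6 against WT (5.55% of all ORFs were) and none was lost (4.35% were). Without untreated ubc9-6 replicate 1, HIS5 counted as gained and HIS4 as lost. Among heat-shocked cells no member was gained in ubc9-6 (4.98% of all ORFs were), and HIS4 was lost (2.7% were).

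HIS1 (YER055C, chromosome V 264892 to 265785, minus strand) encodes ATP phosphoribosyltransferase, the enzyme of the first step of the pathway and the one inhibited by histidine. All 894 bp of its single coding exon lay under a peak in every list. The rank of that peak was 94 and 80 in heat-shocked ubc9-6 cells, 265 and 295 in untreated ubc9-6 cells, 111 and 142 in heat-shocked WT cells and 116 and 298 in untreated WT cells. The peak thus stood higher in its list on heat shock in every ubc9-6 list, while in WT cells the untreated list with rank 116 fell among the heat shock values. The fold enrichment was 4.02 and 4.12 in heat-shocked ubc9-6 cells, 2.69 and 2.47 in untreated ubc9-6 cells, 4.03 and 3.52 in heat-shocked WT cells and 3.66 and 2.37 in untreated WT cells. On rank, heat shock minus untreated was −136.75 (means 106.75 and 243.5, 4 lists each; exact permutation test within strain, two-sided, p = 0.111, Benjamini-Hochberg adjusted p = 0.245 over the 837 ORFs occupied in all 8 lists). The strain difference was 16.75 (means 183.5 in ubc9-6 and 166.75 in WT lists, exact permutation p = 1).

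The HIS1 peak reached over other genes, and which ones changed with treatment. In the heat shock lists its upstream edge stood 614 and 591 bp before the HIS1 start in ubc9-6 cells and 225 and 147 bp before it in WT cells, and the peak ran downstream over PIC2, a mitochondrial copper and phosphate carrier, YER053C-A, which is uncharacterized, and GIP2, a regulatory partner of the Glc7 phosphatase. HOM3, the aspartate kinase of threonine and methionine synthesis, was also under it in 3 of the 4 heat shock lists. In the untreated lists the peak instead extended 5100 and 4549 bp upstream in ubc9-6 cells and 2428 and 2495 bp upstream in WT cells, over FCY2, a purine-cytosine permease. FCY2 was fully covered in all 4 untreated lists and not covered at all in any heat shock list. In untreated ubc9-6 cells RPL34A, a ribosomal protein gene, was under the same peak too, and in untreated WT replicate 1 a single peak of 12184 bp took in the genes on either side. PIC2 and YER053C-A were fully covered in all 8 lists, and HOM3 in all but heat-shocked ubc9-6 replicate 2. In all untreated lists except WT replicate 1, these genes lay under a peak separate from that of HIS1. That peak ranked 137 in WT replicate 2 and 262 and 227 in ubc9-6 cells. RPL34A was also fully covered, under another peak, in both heat-shocked ubc9-6 lists. The rank and fold at HIS1 are those of whichever shared peak covered it in that list. The part of each gene in these peaks was not tested.

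HIS4 (YCL030C, chromosome III 65934 to 68333, minus strand, 1 coding exon) encodes a protein with several catalytic activities, which act early in the pathway and at its last steps. Its peak stood lower in the lists of ubc9-6 cells than in those of WT cells, and lower on heat shock than without it. It ranked 1339 and 1508 in heat-shocked ubc9-6 cells, 857 and 943 in untreated ubc9-6 cells, 444 and 598 in heat-shocked WT cells and 148 and 112 in untreated WT cells. None of the 4 groups overlapped another. Fold enrichment followed the same order, with 1.30 and 1.19 in heat-shocked ubc9-6 cells, 1.5 and 1.41 in untreated ubc9-6 cells, 1.99 and 1.78 in heat-shocked WT cells and 3.41 and 3.54 in untreated WT cells. The −log10 q of the peak was 2.72 and 1.10 in heat-shocked ubc9-6 cells, 6.82 and 5.99 in untreated ubc9-6 cells, 37.9 and 21.7 in heat-shocked WT cells and 143 and 128 in untreated WT cells, so the weakest peak was close to the limit at which peaks were called.

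For HIS4 the rank test was run on the 1639 ORFs with any base under a peak in all 8 lists, a set added after its values were seen. The mean rank was 1161.75 in the 4 ubc9-6 lists and 325.5 in the 4 WT lists, a difference of 836.25 (exact permutation test within treatment, two-sided, p = 0.0556, the smallest that 36 relabellings allow, adjusted p = 0.138). Heat shock minus untreated was 457.25 (means 972.25 and 515, 4 lists each; exact permutation p = 0.0556, adjusted p = 0.193). In this design 40.4% of the 1639 ORFs reached that smallest p for strain and 28.7% reached it for heat shock, and neither difference at HIS4 passed 0.05. All ubc9-6 lists ranked the peak weaker than all WT lists, which held for 16.1% of these ORFs, and heat shock lists ranked it weaker than untreated lists in each strain, which held for 12%. Both calls together held for 16 of the 1639 ORFs, or 0.976%, HIS4 among them. Taking them together was not planned and used the set added after the HIS4 values were seen. That share is a description and not a test. HIS1, the other member in this set, met neither call. ARG1, an arginine synthesis gene, met both calls, so the pattern was not particular to HIS4. ARG1 ranked 1061 and 952 in heat-shocked and 620 and 818 in untreated ubc9-6 cells. In WT cells it ranked 282 and 581 on heat shock and 89 and 84 untreated.

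**Figure D3:**
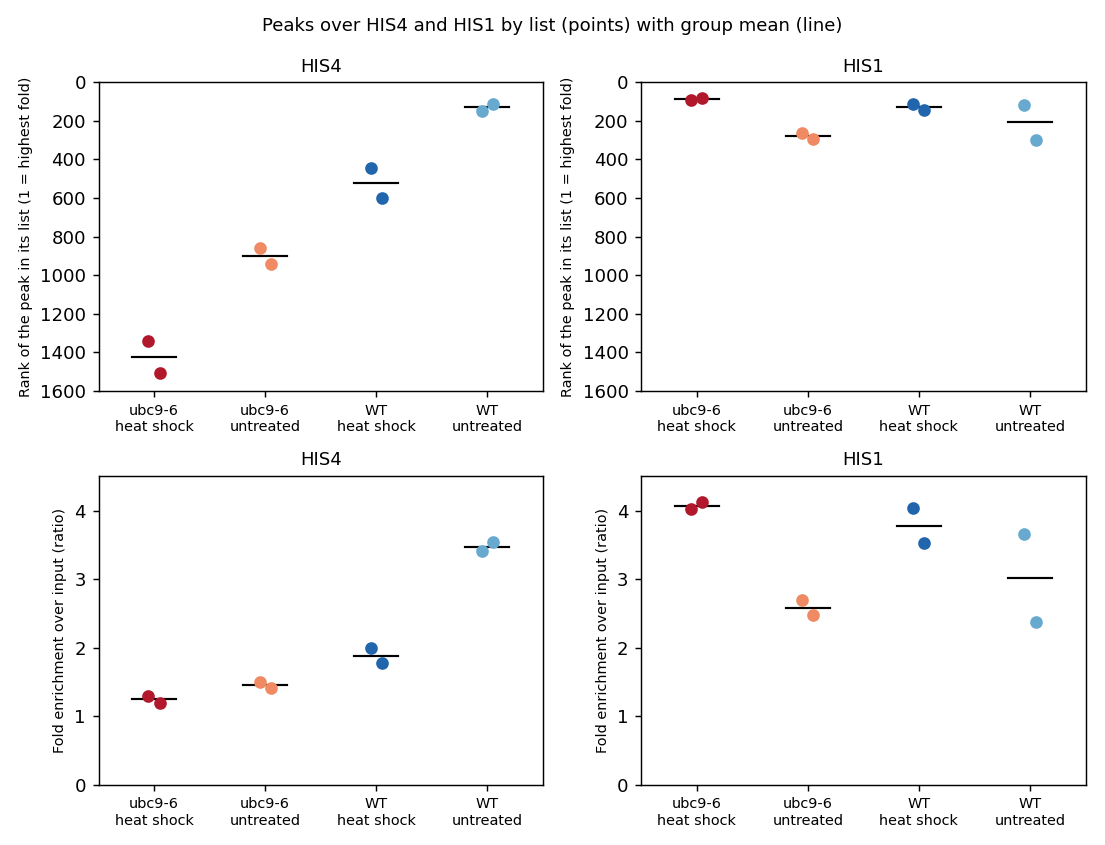
Rank within the list (upper row, y axis reversed so that the strongest peak is at the top) and fold enrichment over input as a ratio (lower row) of the peaks over HIS4 (left) and HIS1 (right) by group. Points are single lists and black lines are means of 2 lists. The HIS4 ranks fall into 4 groups that do not overlap, from 1339 and 1508 in heat-shocked ubc9-6 cells to 148 and 112 in untreated WT cells, and the HIS1 ranks all lie between 80 and 298.

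Less of HIS4 lay under the peak in 3 of the ubc9-6 lists. The covered share was 0.147 and 0.0983 in heat-shocked ubc9-6 cells, 1 and 0.454 in untreated ubc9-6 cells, and 1 in all 4 WT lists. In the 3 lists where cover was partial, the peak lay at the start of the gene and ended 351 and 235 bp past the start codon in heat-shocked ubc9-6 cells and 1089 bp past it in untreated ubc9-6 replicate 2. The peak of untreated ubc9-6 replicate 1, 4086 bp wide, covered the whole gene and also RRP7, a ribosome biogenesis gene downstream, and in the other 7 lists no neighbour shared the HIS4 peak. The strain difference in covered share was −0.575 (means 0.425 in ubc9-6 and 1 in WT lists; exact permutation p = 0.167, adjusted p = 0.457 over the 4200 ORFs covered in at least 1 list), and the heat shock difference was −0.302 (means 0.561 and 0.864, exact permutation p = 0.333, adjusted p = 0.8). No member had all its ubc9-6 lists below all its WT lists in covered share, a call that 7.52% of the 4200 ORFs met.

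Upstream of HIS4 the peak reached less far in all but 1 of the ubc9-6 lists, heat shock replicate 1, than in any WT list. The printed window was covered to 0.877 and 0.263 in heat-shocked ubc9-6 cells, 0.527 and 0.453 in untreated ubc9-6 cells, 1 and 0.813 in heat-shocked WT cells and 1 in each untreated WT list. Of its capital letters, the match that begins 199 bases before the start lay under the peak in 4 lists, heat-shocked ubc9-6 replicate 1 and the WT lists except heat shock replicate 2, whose edge stood 194 bases before the start. The match that begins 243 bases before the start lay under the peak in 3 lists, all of them WT.

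HIS6 (YIL020C, chromosome IX 314035 to 314820, minus strand) encodes the isomerase that follows the early steps. It was the least covered member, with 31 bp at its 3′ end under a peak in untreated ubc9-6 replicate 1, a share of 0.0394, and nothing under a peak in the other 7 lists. That peak lay over the convergent neighbour RPB3, which encodes an RNAPII subunit. The promoter window of HIS6 was not covered in any list, although it holds TGACTC letters 94 bases before the start.

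HIS7 (YBR248C, chromosome II 714807 to 716465, minus strand) encodes the amidotransferase and cyclase that closes the imidazole ring and releases AICAR. Its covered share was 0 in all ubc9-6 lists and in both heat-shocked WT lists, and 0.118 and 0.146 in untreated WT cells. In those untreated WT lists a peak of rank 683 and 679 lay over the upstream gene ARO4, an enzyme of aromatic amino acid synthesis, and reached 195 and 242 bp into HIS7. In untreated ubc9-6 cells the ARO4 peak ended 146 and 62 bp short of HIS7. On heat shock ARO4 itself had no cover, and the nearest peak to HIS7 was 10122 and 10073 bp away in ubc9-6 cells and 10122 and 10083 bp away in WT cells.

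The HIS7 window separated the treatments in the same way. It was covered to 0 in all 4 heat shock lists, to 0.350 and 0.630 in untreated ubc9-6 cells and fully in both untreated WT lists. How common such a separation is among the windows of all ORFs was not counted. The match 230 bases before the start lay under a peak in all 4 untreated lists. Since the ARO4 stop codon lies upstream of this window, peaks there cannot be divided between the end of ARO4 and the start of HIS7.

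HIS3 (YOR202W, chromosome XV 721946 to 722608, plus strand) encodes imidazoleglycerol-phosphate dehydratase. Its covered share was 0 in both heat-shocked ubc9-6 lists, 0.540 and 0.929 in untreated ubc9-6 cells, 0 in both heat-shocked WT lists and 1 in both untreated WT lists. Heat shock and untreated lists did not overlap in either strain, with a mean of 0 on heat shock and 0.867 untreated (difference −0.867, exact permutation p = 0.0556, the smallest possible, adjusted p = 0.722 over 4200 ORFs). The strain difference was −0.133 (means 0.367 in ubc9-6 and 0.5 in WT lists, exact permutation p = 0.333, adjusted p = 0.642), and it was 0.0339 when either untreated WT list was left out.

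The peak over HIS3 always took in DED1, the gene of a translation initiation helicase that lies just downstream. DED1 was fully covered in all 8 lists, at ranks 284 and 300 in heat-shocked ubc9-6 cells, 318 and 402 in untreated ubc9-6 cells, 431 and 342 in heat-shocked WT cells and 648 and 389 in untreated WT cells. In the heat shock lists that peak began 174 and 142 bp downstream of HIS3 in ubc9-6 cells and 134 and 120 bp downstream in WT cells. The DED1 part of the peak was thus present in every list, and the lists differed in where its upstream edge lay. In the 2 lists that covered HIS3 in part, more of its 3′ part was covered. In untreated WT replicate 1 one 7276 bp peak also took in BFR1 and MRM1 upstream.

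HIS5 (YIL116W, chromosome IX 142928 to 144085, plus strand) encodes histidinol-phosphate aminotransferase. Its covered share was 0 in both heat-shocked ubc9-6 lists, 0.255 and 1 in untreated ubc9-6 cells, 0 and 0.247 in heat-shocked WT cells and 0.374 and 0.386 in untreated WT cells. No neighbour shared a HIS5 peak in any list, so this signal, unlike that of HIS3 or HIS7, stood on the gene alone. The peak ranked 523 and 496 in untreated ubc9-6 cells and 569 and 277 in untreated WT cells, and 1376 in the heat-shocked WT list that had one. All 5 of these peaks began between 132 bp before and 8 bp after the start codon. Of these, 4 lay at the start of the gene and ended 293 to 446 bp past the start codon, and the peak of untreated ubc9-6 replicate 2 covered the whole gene and ran 144 bp past its end.

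Heat shock and untreated lists of HIS5 did not overlap in either strain, with a mean share of 0.0617 on heat shock and 0.504 untreated (difference −0.442, exact permutation p = 0.0556, adjusted p = 0.722). Of the 4200 ORFs, 7.69% reached that p. HIS3 and HIS5 were the 2 members whose heat shock lists lay below their untreated lists in each strain, a call met by 3.86% of the 4200 ORFs. The strain difference of HIS5 was 0.0620 (means 0.314 in ubc9-6 and 0.252 in WT lists, exact permutation p = 1) and was −0.167 without untreated ubc9-6 replicate 2, the list in which the whole gene was covered. The TGACTC letters of the HIS5 window, which begin 202 bases before the start, were under no peak in any list.

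HIS2 (YFR025C, chromosome VI 203743 to 204750, minus strand) encodes histidinol-phosphate phosphatase. It had no cover in the 4 ubc9-6 lists, a share of 0.00694 and 0 in heat-shocked WT cells, and 0.0923 and 0.0913 in untreated WT cells. These similar shares came from different places. Replicate 1 of untreated WT had a 472 bp peak of fold 1.27 over the start of the gene, and replicate 2 had a 619 bp peak of fold 1.34 over its end. The HIS2 window was covered to 0 and 0.29 in heat-shocked and to 0 in untreated ubc9-6 cells. In WT cells it was covered to 0.857 and 0.5 on heat shock and to 1 and 0 untreated. Its heat shock minus untreated difference, 0.162, was the only positive one among the members.

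Counted list by list, the promoter windows covered to at least 0.5 were 2 and 1 of 7 in heat-shocked ubc9-6 cells, 2 and 2 in untreated ubc9-6 cells, 3 and 3 in heat-shocked WT cells and 5 and 4 in untreated WT cells. Over all ORFs, 31.4% and 30.1% of windows met this in heat-shocked ubc9-6 cells, 26.1% and 30.9% in untreated ubc9-6 cells, 37.6% and 33.9% in heat-shocked WT cells and 35.1% and 34.9% in untreated WT cells. The HIS3 window was covered to 0 in all heat shock lists, to 0 and 0.01 in untreated ubc9-6 cells and to 1 and 0.48 in untreated WT cells. The HIS5 window was covered to 0 in both heat-shocked ubc9-6 lists, 0.303 and 0.393 in untreated ubc9-6 cells, 0 and 0.14 in heat-shocked WT cells and 0.45 and 0.607 in untreated WT cells. Both genes, and HIS7 as well, thus had more of the window covered in each untreated WT list than in any other list. The share of all ORF windows that met this was not counted.

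Partial cover of members was mostly at the 5′ end. Of the 15 cases in which a list covered a member in part, 11 had more of the 5′ part covered than of the 3′ part, against 45.9% of the 11795 such cases over all ORFs. The 11 cases were those of HIS4, HIS5 and HIS7 and 2 of the 3 at HIS2, and none was at HIS3 or HIS6. Those of HIS7 were the edge of the peak over ARO4, and 1 of those at HIS2 was 7 bp. Cases of 1 gene in several lists are not independent, and this comparison was added after the peak positions were seen.

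Of 13 genes that supply or control the pathway (GCN4, GCN2, BAS1, PHO2, PRS1 to PRS5, HIP1, HTS1, ADE16 and ADE17), GCN4 and ADE16, one of the enzymes that use AICAR, were occupied in all 8 lists. That is 15.4% of the 13, close to the 13.9% of all ORFs. PRS3, which encodes a PRPP synthetase subunit, was gained in untreated ubc9-6 against untreated WT cells and lost on heat shock in ubc9-6 cells. No other gene of the 13 was gained or lost in the 4 comparisons, and 10 of them (76.9%) were occupied in no list, against 57.0% of all ORFs.

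Other amino acid pathways under general amino acid control gave a scale for these counts. None of the 9 lysine, 9 arginine or 10 aromatic and tryptophan genes was gained in any of the 4 comparisons. On heat shock in WT cells 1 lysine gene (LYS1), arginine genes that included ARG5,6 and ARG7, and 5 aromatic genes (ARO1, ARO3, ARO4, TRP4 and TRP5) were lost, beside HIS3 of the histidine genes. On heat shock in ubc9-6 cells the lost genes were LYS12, LYS20 and LYS21, ARG1 and ARG3, and ARO4. In untreated ubc9-6 against untreated WT cells they included LYS1, ARG7, TRP3, TRP4 and TRP5, and no histidine gene. In heat-shocked ubc9-6 against heat-shocked WT cells LYS20, ARG1 and ARG3 were lost, with HIS4. The comparisons share lists, and TRP1, in the aromatic list, is also part of the ubc9-6 construct. In the same order of pathways, TGACTC letters stood in 4 of 9, 5 of 9 and 4 of 10 promoter windows. With 500 bases before the start in place of these windows, the letters stood in 4 of 9 lysine, 9 of 9 arginine and 5 of 10 aromatic and tryptophan genes, in 6 of 7 histidine genes and in 12.65% of all ORFs.

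**Figure D4:**
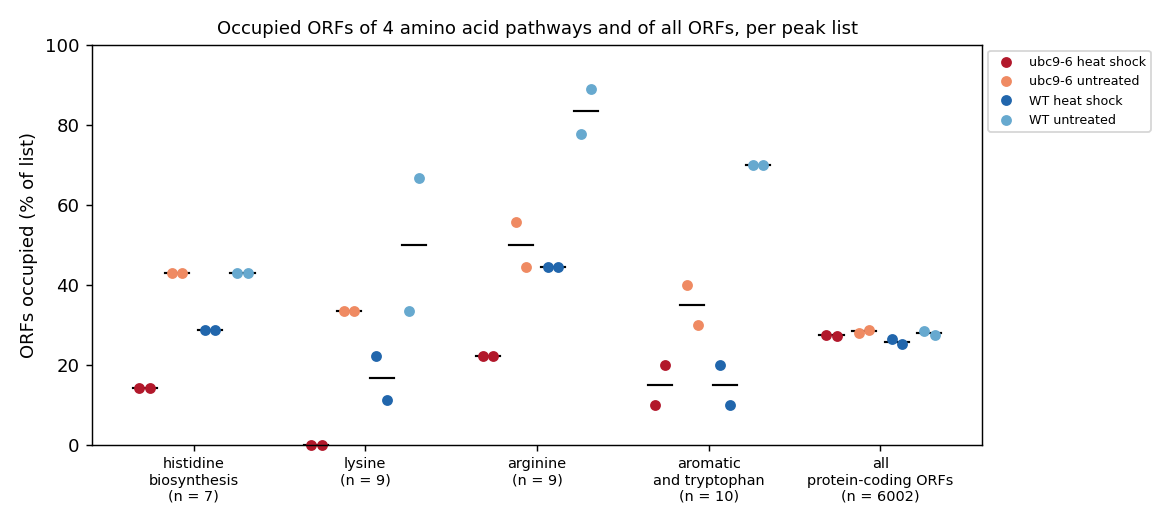
Percent of ORFs occupied (y axis) in each list for the histidine genes, for 3 other amino acid pathways and for all ORFs (x axis). Points are single lists and black lines are means of 2 lists. In each heat-shocked ubc9-6 list 1 of 7 histidine genes, no lysine gene and 2 of 9 arginine genes were occupied. Of the 10 aromatic and tryptophan genes, 1 and 2 were. All ORFs stayed between 25.1% and 28.8% in every list. The pathways are small, and their difference from all ORFs was not tested.

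The peaks whose ranks ran closest to those of HIS1 over the 8 lists, among 834 ORFs occupied in all lists and outside its own peaks, were those of HSP60 and HSP10, which encode the mitochondrial chaperonin and its partner. The root mean square difference in rank was 34.6 for HSP60 and 43.3 for HSP10. The ranks at HIS1 belong to peaks shared with other genes, and those genes changed with treatment. The closeness is thus one of whole peaks and not of HIS1 alone. HSP60 ranked 123 and 119 in heat-shocked ubc9-6 cells, 293 and 340 in untreated ubc9-6 cells, 101 and 133 in heat-shocked WT cells and 172 and 265 in untreated WT cells. For HIS4, among 1638 ORFs under a peak in all lists, the closest were YJR026W and YJR027W, the gag and gag-pol ORFs of a Ty retrotransposon. These overlap, share each peak and belong to a repeated family whose reads may be divided among copies, and at a root mean square difference of 153 they were far less close.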

How the data were processed

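The series holds 16 RNAPII ChIP-seq samples, 8 immunoprecipitates and their 8 inputs, and inputs entered here only through peak calling. Paired-end reads were aligned by the authors with Bowtie2 2.3.5 to sacCer3, and broad peaks were called per replicate, without pooling, with MACS2 2.1.1.20160309 and input as control. Each deposited peak has a fold enrichment over input (a ratio) and the −log10 of its p-value and q-value. The deposited lowest −log10 q per list was 1.00 to 1.30. Reads were not used here, so realized depth is unknown. Peak number and width can depend on depth, and an uncalled region may lie just under the limit.

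The study modelled reads over ORFs. Here peak positions were compared, with the list as the unit, in Python 3.11.15 with numpy 2.4.6 and figures in matplotlib 3.10.9. Groups were taken from the strain and treatment in the labels. Covered share, occupied calls at 0.5, peak rank within a list (the peak that covers most of the ORF) and promoter window shares were computed for all 6002 ORFs. Exact permutation tests were adjusted over all ORFs tested, and the code was tested on simulated data. With 2 lists against 2 the smallest exact p is 0.333, so values of single pairs of groups are given without a test. Named genes were the 7 members, neighbours under their peaks, listed genes gained or lost, and the 2 ORFs closest in rank to a member occupied in all lists. HIS4 was added to that last step after its values were seen. The 7 members and the gene lists were chosen with earlier results of these data known. Alternatives were peaks with −log10 q of at least 5, the 1000 peaks of highest −log10 q, occupied at 0.25 or 0.8, rank by −log10 q or as a percent, a replicate block, a window of 500 bases, and each list left out. Some items are not reported here.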

Additional observations from a re-analysis of the deposited data

How the results depend on the processing

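Of 64 alternative counts of members gained or lost, 57 stayed within 1.5 times the value reported. With occupied set at 0.25, members lost on heat shock were 2 in WT and 3 in ubc9-6 cells, and at 0.8 they were 0 in ubc9-6 cells. With 1 list left out, members lost on heat shock in ubc9-6 cells were 1 to 2, and in untreated ubc9-6 against WT cells 0 to 1 were gained and 0 to 1 lost. Of 154 alternative differences in covered share, 148 were counted as keeping their direction, as were 44 of 48 in rank. The 148 include those of HIS1, at 0 throughout, and those of HIS6 that became 0 without untreated ubc9-6 replicate 1. None of the differences could pass 0.05, since the smallest p these tests can give is 0.0556. HIS2 changed direction on heat shock, to 0.00174, with peaks of −log10 q of at least 5 and with the top 1000 peaks, which remove its weak untreated peaks. With 1 list left out, the strain difference ran from −0.320 to 0.0339 in covered share at HIS3, from −0.167 to 0.167 at HIS5 and from −20.4 to 60.5 in rank at HIS1. For HIS4 the strain difference in rank ran from 721 to 938 and the heat shock difference from 279 to 633 over the alternatives in ranks that could be run; filters on q remove its peaks from heat-shocked ubc9-6 lists and give no rank.

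Of 14 differences in window share, 5 moved by more than the spread of replicates with 500 bases before the start, and none changed direction. Same-numbered replicates correlated at 0.339 in their deviations between heat-shocked and untreated WT cells and at −0.00341 to 0.0468 otherwise. The numbers were not taken as pairs in the main tests. Whether same-numbered WT lists were prepared together was not tested. With a replicate block the differences were the same by construction, 836.25 in rank for HIS4 by strain, and the exact permutation p was 0.125, the smallest it can give. Depth is not known for any list, and 2 lists per group cannot reach 0.05.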
